A study of Mus musculus with 4 samples.

Results

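The 10 genes described here encode chemokine ligands that CD4 T cells can make (*Xcl1*, *Ccl1*, *Ccl3*, *Ccl4*, *Ccl5*, *Ccl9*, *Ccl22*, *Cxcl10*, *Cxcl16* and *Cx3cl1*), and were taken by symbol from the 24369 genes listed in the RNA-seq files. All 10 had enough counts to be tested, among 14143 genes that did. The RNA came from naïve CD4 T cells of the spleens of wild-type (WT) C57BL/6 mice, activated on plates coated with anti-CD3, with anti-CD28 in solution and human IL-2. On day 2 the cells received either an MSCV retrovirus with GFP alone (EV RV) or the same vector with Tox and GFP (Tox RV), and on day 5 both groups were restimulated through the T cell receptor for 5 h, after which GFP+ cells were sorted. Each group had 2 libraries and represents 2 mice, and the labels do not say whether a mouse gave cells to both groups. The Tox RV cells carry Tox on a retroviral vector in addition to their own gene, and the counts do not separate the transcripts of the vector from those of the gene. All 4 libraries share the activation, the transduction and the sort.

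Chemokines are small secreted proteins that guide cells along a gradient by binding G protein-coupled receptors, and they are classed as C, CC, CXC or CX3C by the spacing of the cysteines near the N terminus. T cells make several of them within hours of antigen receptor signalling. *Xcl1* encodes the C chemokine that attracts cross-presenting dendritic cells through XCR1, and *Ccl3*, *Ccl4* and *Ccl5* encode CC chemokines that draw in monocytes, dendritic cells and other T cells. *Ccl1* (receptor CCR8) and *Ccl22* (receptor CCR4) act on Treg and Th2 cells, *Ccl9* encodes a CCR1 ligand, and *Cxcl10* encodes an interferon-induced ligand of CXCR3 that recruits Th1 cells. *Cxcl16* and *Cx3cl1* encode chemokines made as transmembrane proteins, which are released by the sheddases ADAM10 and ADAM17.

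The authors aligned the reads to mm10 transcripts with bowtie and estimated an expected count for each gene with RSEM, which summed to between 46989997 and 74548723 per library. Levels are given in TPM, a share of all transcripts that takes account of their length. Differences were tested on counts by quasi-likelihood in edgeR, and p-values were adjusted over all genes tested by the Benjamini-Hochberg method. Differences are Tox RV over EV RV on the log2 scale, followed by ± their standard error. *Tox* measured 7.22 and 3.37 TPM in EV RV (replicates 1 and 2) and 69.1 and 56.9 TPM in Tox RV, so all 4 libraries lay on the side of their labels. EV RV replicate 1 stood apart, with 24.7% of its counts in the 45S pre-ribosomal RNA *Rn45s* against 12% in EV RV replicate 2 and 10.3% and 7.14% in the Tox RV libraries. Replicates also lay further apart in EV RV, where their log2 difference had an SD of 0.535 over genes, than in Tox RV (0.297). T cell markers were high in every library (*Cd4* at 174 to 250 TPM and *Cd3e* at 85.7 to 285 TPM). The summed CPM (counts scaled to library size) of 6 B cell markers was 2.06 to 2.35, with *Ms4a1* and *Pax5* at 0 counts. For 11 myeloid and dendritic cell markers it was 12.6 to 17.1 in EV RV and 10.3 to 14.2 in Tox RV. That sum came mainly from *Zbtb46* and *Cd68*, and *Lyz2* had at most 2 counts. The 8 CD8 T and NK cell markers summed to 125 to 136 CPM in EV RV and 82.4 to 105 CPM in Tox RV, mainly *Eomes*, with *Ncr1* at 0. Fewer cells of a type and less RNA per cell cannot be told apart in such bulk samples.

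The most abundant chemokine transcripts were *Ccl1* in EV RV cells and *Xcl1* and *Ccl1* in Tox RV cells. In EV RV cells the order by mean TPM was *Ccl1*, *Xcl1*, *Ccl5*, *Ccl4*, *Ccl3*, *Cxcl10*, *Ccl9*, *Cx3cl1*, *Cxcl16* and *Ccl22*. Neighbours in that order whose ranges over the libraries overlapped were *Ccl5* and *Ccl4*, *Ccl4* and *Ccl3*, and *Cx3cl1* and *Cxcl16*. In Tox RV cells the order was *Xcl1*, *Ccl1*, *Ccl4*, *Ccl3*, *Ccl5*, *Cxcl10*, *Ccl9*, *Cxcl16*, *Cx3cl1* and *Ccl22*. Ranges overlapped there between *Xcl1* and *Ccl1*, *Ccl4* and *Ccl3*, and *Ccl9* and *Cxcl16*. Compared within libraries, *Ccl4* was above *Ccl3* in every library, and *Xcl1* was above *Ccl1* in both Tox RV libraries. The remaining overlapping pairs changed order between the libraries of their group. By mean TPM *Xcl1* was thus in place 2 in EV RV and place 1 in Tox RV, and *Ccl5* in places 3 and 5.

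**Figure D1:**
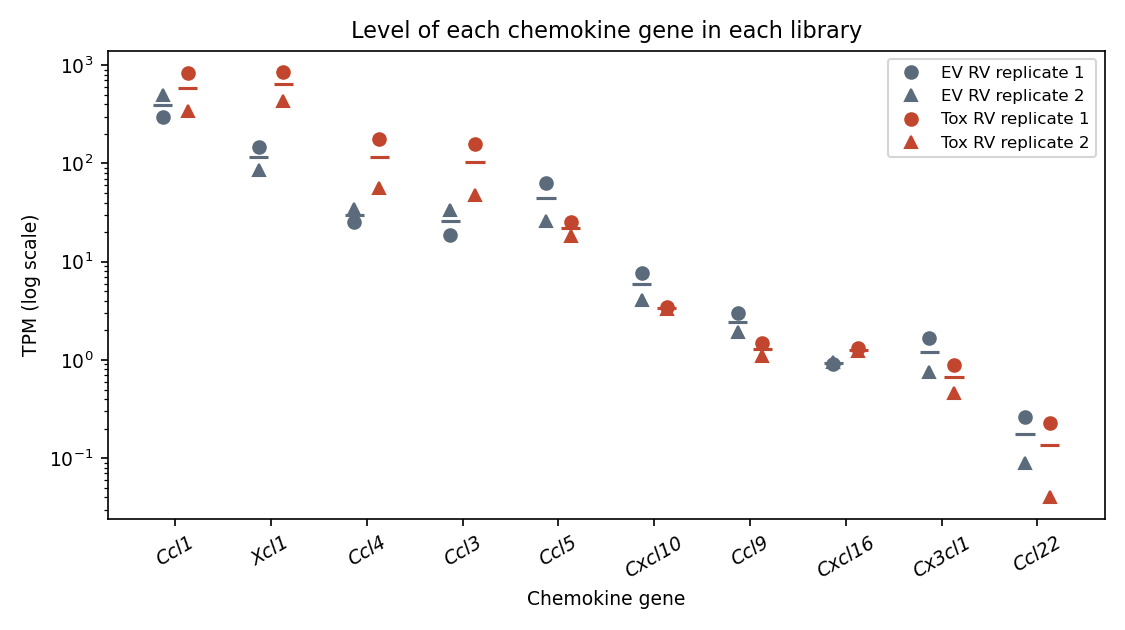
TPM of each chemokine gene (log scale) in the 2 EV RV and 2 Tox RV libraries, with points for libraries and a bar for the mean of each group. *Xcl1*, *Ccl3* and *Ccl4* are higher in both Tox RV libraries, *Ccl1* overlaps between groups at 298 to 833 TPM, and *Ccl22* stays at or below 0.26 TPM.

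The 10 transcripts together came to 567 and 687 TPM in EV RV replicates 1 and 2 and to 2053 and 906 TPM in Tox RV replicates 1 and 2. *Xcl1* and *Ccl1* made up 78.6% to 85.8% of this sum in each library, but their proportions differed. *Xcl1* was 26.1% and 12.5% of the sum with EV RV, against 41.6% and 48.1% with Tox RV. The ratio of *Xcl1* to *Ccl1* TPM within a library, which does not depend on scaling between libraries, was 0.497 and 0.172 in EV RV cells against 1.03 and 1.28 in Tox RV cells. *Ccl5* went the other way, with 11.2% and 3.81% of the sum with EV RV, against 1.24% and 2.03% with Tox RV. A share also falls when the sum rises. *Ccl5* was nearly equal in EV RV replicate 2 (26.2 TPM) and Tox RV replicate 1 (25.4 TPM), although its share differed. The share of *Ccl1* was lower with Tox RV, but its mean was 398 TPM with EV RV and 587 TPM with Tox RV. With 2 libraries against 2, an exact permutation test of a single value cannot give a two-sided p below 0.333, so these shares were not tested.

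**Figure D2:**
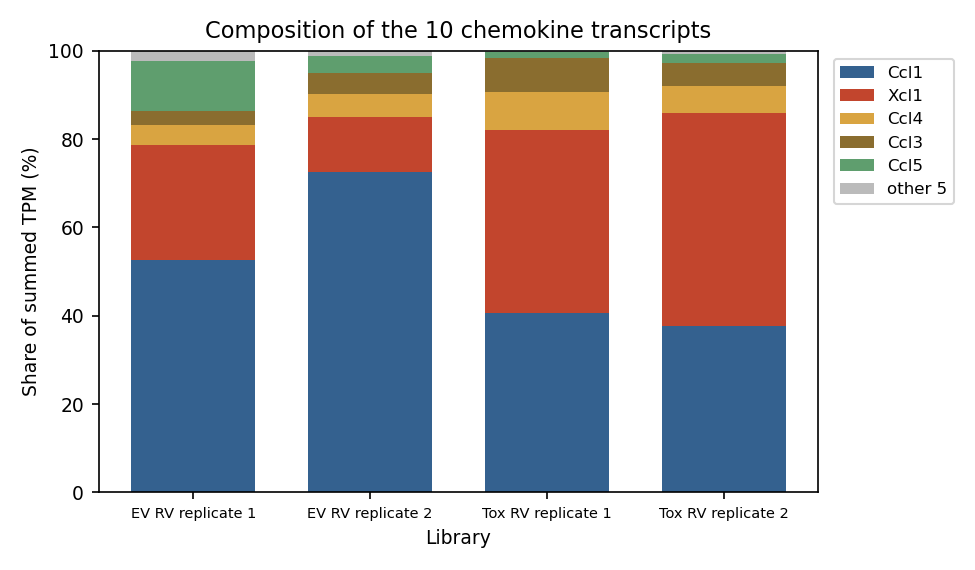
Share (%) of the summed TPM of the 10 chemokine genes taken by each of the 5 most abundant genes and by the other 5 together, for each library. *Ccl1* takes 52.5% and 72.6% with EV RV, against 40.6% and 37.7% with Tox RV, while *Xcl1* takes 41.6% and 48.1% in the Tox RV libraries. Shares depend on the sum, and the mean level of *Ccl1* was 398 TPM with EV RV and 587 TPM with Tox RV.

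By quasi-likelihood in edgeR, 0 of the 10 chemokine genes had an adjusted p-value below 0.05, as had 0% of all genes tested. At an unadjusted p-value below 0.05, 3 were higher in Tox RV cells (*Xcl1*, *Ccl3* and *Ccl4*) against a background of 1.07% of all genes, and 1 was lower (*Ccl9*) against 2.55%. The same 3 were the members with a log2 fold change above 1, which 0.841% of all genes had, and 0 members were below -1, which 2.54% of all genes were. The groups did not overlap for 6 members on the CPM scale. Tox RV was the higher for 4 of them (the same 3 and *Cxcl16*) against 18.6% of all genes, and the lower for 2 (*Ccl9* and *Cxcl10*) against 17.4%. The median log2 fold change of the 10 was 0.20, with a range from -0.93 to 2.56, beside a median of 0.0036 over all genes tested. DESeq2, the tool the methods name, called *Xcl1*, *Ccl3* and *Ccl4* as higher and did not call the other 7, where it called 0.0605% of all genes in that direction. The study picked these 3 genes from the same libraries, so their counts here are not independent evidence of a direction. Apart from these libraries, the study reported more *Xcl1* and *Ccl3* mRNA with Tox RV by quantitative PCR in additional cultures. It also reported more CCL3 and CCL4 protein by flow cytometry in transduced CD4 T cells from lymph node cultures.

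**Figure D3:**
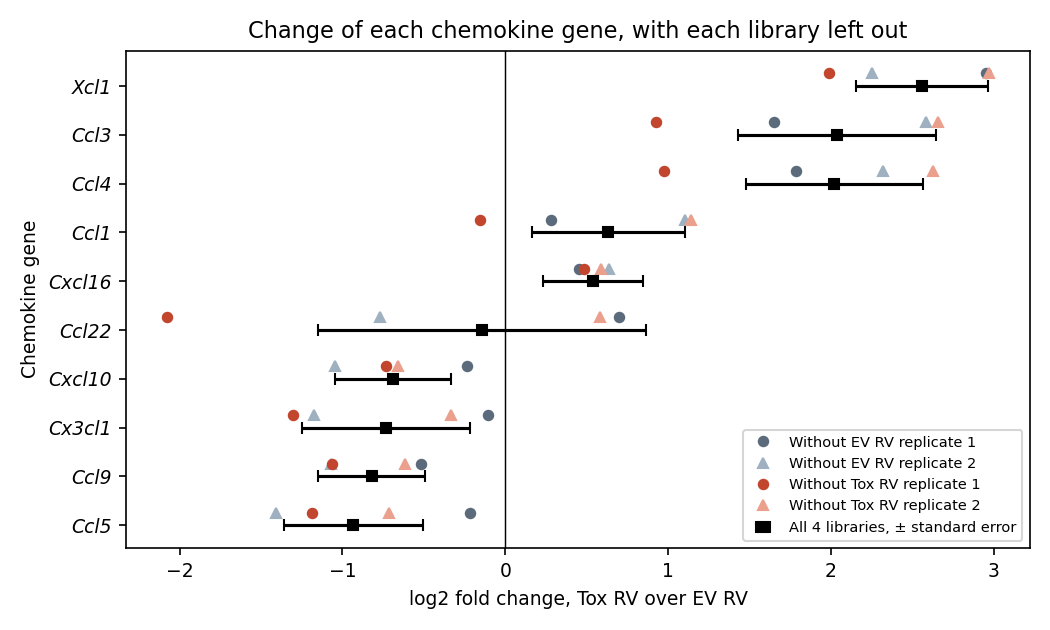
The log2 fold change of Tox RV over EV RV for each chemokine gene, with its standard error (black squares) and the value when libraries were left out singly (coloured points). *Xcl1* stays between 1.99 and 2.97, while *Ccl3* and *Ccl4* come down to 0.92 and 0.97 without Tox RV replicate 1 and *Ccl1* and *Ccl22* lie on both sides of 0.

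*Xcl1* lies on the minus strand of chromosome 1 (mm10, 164931644 to 164935527). It measured 148 and 85.7 TPM in EV RV (replicates 1 and 2) and 854 and 436 TPM in Tox RV. The lower Tox RV library was thus well above the higher EV RV library. The difference on counts was 2.56 ± 0.41 on the log2 scale (edgeR adjusted p = 0.897, DESeq2 adjusted p = 2.58e-09). By unadjusted p-value and by log2 fold change *Xcl1* ranked 7 of all genes tested. It was the member with the smallest p-value, and its value without Tox RV replicate 1 was 1.99. A noncoding transcript on the other strand, *Gm20743*, overlaps it but had 6 counts in EV RV replicate 1 and 0 in the other libraries.

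*Ccl3* and *Ccl4* lie 13.2 kb apart on chromosome 11 (83647844 to 83649355 on the minus strand and 83662584 to 83664683 on the plus strand), and are transcribed away from each other. *Ccl3* measured 18.8 and 33.8 TPM in EV RV (replicates 1 and 2) and 158 and 47.8 TPM in Tox RV. *Ccl4* was at 25.4 and 34.8 TPM and at 176 and 56.4 TPM in the same libraries. Both genes were highest in Tox RV replicate 1, by 3.31-fold and 3.12-fold over Tox RV replicate 2, and the groups did not overlap. The log2 fold change was 2.04 ± 0.61 for *Ccl3* and 2.02 ± 0.54 for *Ccl4*, each with an edgeR adjusted p-value of 0.897. With DESeq2 the adjusted p-values were 0.0106 and 0.00494. Leaving out Tox RV replicate 1 gave 0.92 and 0.97 on this scale, and leaving out Tox RV replicate 2 gave 2.66 and 2.62, so replicate 1 of Tox RV set much of their size.

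The transcripts of *Ccl3* and *Ccl4* kept nearly the same proportion in every library, with a *Ccl4* to *Ccl3* ratio in TPM of 1.35 and 1.03 for EV RV and of 1.11 and 1.18 for Tox RV. Among all genes tested, *Ccl4* was the gene nearest to *Ccl3* by Euclidean distance of centred log2 CPM over the 4 libraries (distance 0.290), and *Ccl3* the nearest to *Ccl4*. The next were *Gem* (0.765 from *Ccl3* and 0.491 from *Ccl4*) and, for *Ccl4*, *Asb2* (0.794) and *Adora3* (0.819). For *Ccl3* places 3 to 5 went to *Ptprn* (0.843), *Adora3* (0.877) and *Tsku* (0.930), and for *Ccl4* place 5 went to *Scimp* (0.885). Nearest to *Xcl1* by this measure were *Gcnt1* (0.318), *Acpp* (0.498), *Asb2* (0.529), *Adora3* (0.852) and *Klhl30* (0.860). Seen from *Ccl3*, *Ccl1* was place 48 and *Xcl1* place 65. *Ptprn*, *Tsku*, *Klhl30* and *Scimp* were at or below 0.632 CPM in every library, so their places rest on few counts. These distances rest on 4 libraries and describe them only.

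Within 200 kb of *Ccl3* and *Ccl4* the annotation holds 14 genes of the files, of which 8 had enough counts to be tested. Apart from *Ccl3* and *Ccl4*, all 6 of these had a log2 fold change below 0 with TMM scaling, and 0 of the 6 passed the test. Of all 14143 genes tested, 7008 were below 0. *E230016K23Rik* was above 0 with library totals, without EV RV replicate 2 and without Tox RV replicate 2, and *Heatr9* without EV RV replicate 1, which left 5 of the 6 below 0 each time. *Ccl5* (83525778 to 83530518) and *Ccl9* (83572919 to 83578636), which lie in the same cluster of CC chemokine genes, were among them, at -0.93 and -0.82. The 4 that encode no chemokine were *Taf15*, *Heatr9*, *E230016K23Rik* and *Heatr6*, which ranged from -1.43 to -0.04. *Heatr9* set the lower end, with 75 counts in EV RV replicate 1 and 19 to 24 in the other libraries. The further chemokine gene in the window, *Ccl6*, had at most 2 counts in any library.

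**Figure D4:**
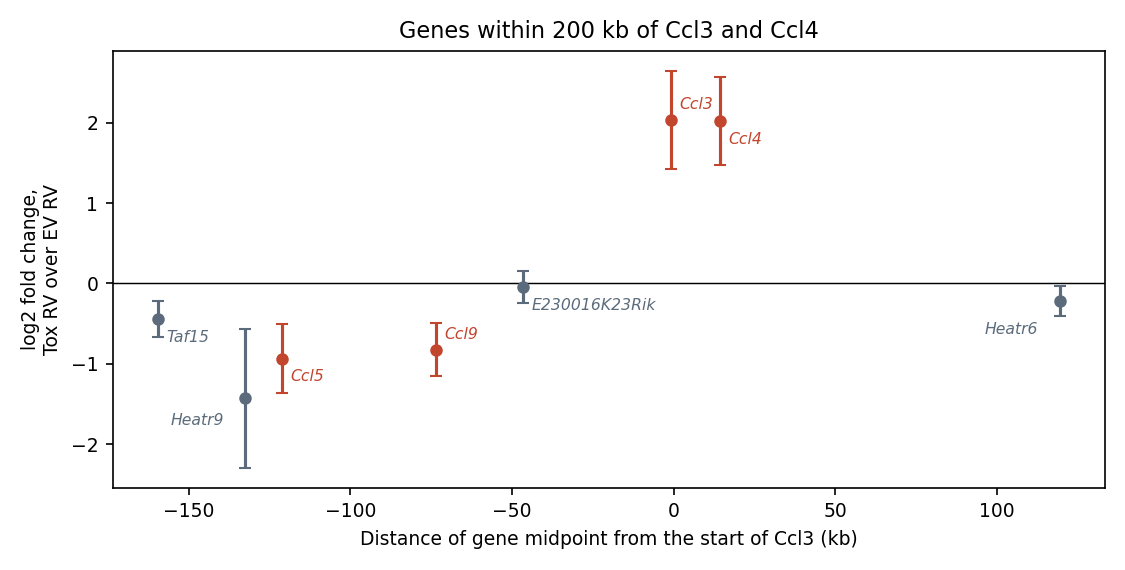
The log2 fold change of Tox RV over EV RV, with its standard error, of the 8 genes tested within 200 kb of *Ccl3* and *Ccl4*, by distance of the gene's midpoint from the start of *Ccl3*. Chemokine genes are in red. *Ccl3* and *Ccl4* lie near 2.04 and 2.02 and the other 6 genes lie below 0, of which *E230016K23Rik* lies above 0 when scaled by library totals and without either replicate 2.

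*Ccl1*, on the minus strand of chromosome 11 (82176666 to 82179812 in the RefSeq record), measured 298 and 499 TPM in EV RV (replicates 1 and 2) and 833 and 342 TPM in Tox RV. The groups overlapped, since Tox RV replicate 2 lay below EV RV replicate 2. The difference was 0.63 ± 0.47 on the log2 scale (edgeR adjusted p = 0.897), and without Tox RV replicate 1 it was -0.16. Like *Ccl3* and *Ccl4*, *Ccl1* was higher in EV RV replicate 2 than in EV RV replicate 1 (1.68-fold, 1.80-fold and 1.37-fold in TPM for *Ccl1*, *Ccl3* and *Ccl4*), whereas *Xcl1* was lower there.

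All 10 chemokine genes had a higher CPM in Tox RV replicate 1 than in Tox RV replicate 2, as did 50.5% of all genes tested, and 6 of the 10 were higher in EV RV replicate 1 than in EV RV replicate 2 (50.3% of all genes). Of 19 genes known to follow T cell receptor stimulation, 16 were higher in Tox RV replicate 1 and 11 were higher in EV RV replicate 1. *Nr4a2*, an orphan nuclear receptor gene of the immediate response, was at 14.0 and 13.1 CPM with EV RV, against 23.1 and 18.9 CPM with Tox RV. *Tnfrsf9*, which encodes the costimulatory receptor 4-1BB, was at 726 and 824 CPM and at 1180 and 1010 CPM in the same order. *Myc* differed in the other direction, at 226 and 166 CPM in EV RV and 147 and 117 CPM in Tox RV. Of all 14143 genes tested, 7135 had a log2 fold change above 0. Over the 19 genes 12 had a log2 fold change above 0 and 7 below it, the median was 0.17, and 0 passed the test. Without Tox RV replicate 1 the counts were 6 above and 13 below 0 (median -0.13), and with library totals they were 14 and 5. The part of this stimulation response in the chemokine levels was not tested.

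*Ccl5*, whose transcript encodes the chemokine RANTES, measured 63.6 and 26.2 TPM in EV RV (replicates 1 and 2) and 25.4 and 18.4 TPM in Tox RV. EV RV replicate 1 was high and the other EV RV library lay close to a Tox RV library, with 7.09 CPM in EV RV replicate 2 against 7.10 CPM in Tox RV replicate 1. The difference was -0.93 ± 0.43 on the log2 scale (edgeR adjusted p = 0.897). It was -0.22 without EV RV replicate 1 and -1.41 without EV RV replicate 2, where the edgeR adjusted p-value was 0.0461 and 600 of all genes were called. *Ccl5* is also a product of CD8 T and NK cells. The NK receptor gene *Klrk1* was, like *Ccl5*, highest in EV RV replicate 1, at 36.6 and 10.5 CPM with EV RV against 17.2 and 4.86 CPM with Tox RV. *Klrd1* was at 14.2 and 1.90 CPM against 10.2 and 1.98 CPM, so both genes were higher in replicate 1 of each group. *Eomes*, which made up most of the CPM of this marker list, had the other order in EV RV, at 79.7 and 109 CPM against 72.1 and 71.1 CPM with Tox RV. *Cd8a* was at 1.54 and 2.14 CPM against 1.56 and 1.75 CPM, and *Cd8b1* at 3.10 and 1.73 CPM against 3.21 and 2.51 CPM. The markers of CD8 T and NK cells thus had no common order. By CPM *Klrk1* had the order of *Ccl5* over the libraries, though *Ccl5* was nearly equal in EV RV replicate 2 and Tox RV replicate 1. By TPM *Ccl5* had the reverse order in these libraries (26.2 and 25.4 TPM), and *Klrk1* had not (5.46 and 8.65 TPM). *Klrd1* was also highest in EV RV replicate 1. *Eomes* and *Cd8a* were highest in EV RV replicate 2, and *Cd8b1* in Tox RV replicate 1. The part of such cells in the *Ccl5* level was not tested.

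*Ccl9* measured 2.98 and 1.91 TPM in EV RV (replicates 1 and 2) and 1.49 and 1.10 TPM in Tox RV. Both Tox RV libraries were lower. The difference was -0.82 ± 0.33 on the log2 scale (edgeR adjusted p = 0.897), with -0.52 without EV RV replicate 1. *Ccl22* was close to the detection limit, with 11 and 7 counts for EV RV and 16 and 2 counts for Tox RV. No difference in *Ccl22* was detectable at this depth (-0.14 ± 1.00 on the log2 scale, edgeR adjusted p = 0.983). *Ccl22* lies on chromosome 8 (94745590 to 94751699) beside *Cx3cl1* (94772009 to 94782427).

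*Cxcl10*, on chromosome 5 (92346638 to 92348889), measured 7.67 and 4.12 TPM in EV RV (replicates 1 and 2) and 3.48 and 3.33 TPM in Tox RV. Both Tox RV libraries were lower, and the difference was -0.69 ± 0.36 on the log2 scale (edgeR adjusted p = 0.897). Without EV RV replicate 1 it was -0.24. *Art3*, a gene on the other strand that overlaps *Cxcl10*, had at most 14 counts in a library. Of 12 other interferon-induced genes 11 were tested, and 11 of the 11 had a log2 fold change below 0 (median -0.46), 8 with both Tox RV libraries below both EV RV libraries, against 17.4% of all genes. Without EV RV replicate 1, the library with the most *Rn45s*, 9 of the 11 were below 0 (median -0.31), and with library totals 10 were, *Ifit3* being above 0. In edgeR 0 of the 11 passed the adjusted threshold, 4 were lower at an unadjusted p-value below 0.05 against 2.55% of all genes, and *Gbp5* passed it in DESeq2 (adjusted p = 0.0378).

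*Gbp5*, which encodes an interferon-induced GTPase, was at 173 and 102 CPM in EV RV and 57.7 and 61.0 CPM in Tox RV, a log2 fold change of -1.21 ± 0.28. *Gbp2*, of the same family, was at 1044 and 785 CPM in EV RV and 637 and 641 CPM in Tox RV. *Ifit1*, which encodes an antiviral RNA-binding protein, was at 9.98 and 7.67 CPM and at 5.74 and 5.43 CPM. In all 3 genes EV RV replicate 1 was the highest library, as it was for *Cxcl10*. *Ifng*, singled out after its values were seen, did not follow this order (EV RV 10.9 and 107 CPM, Tox RV 96.0 and 47.4 CPM). Its library with the lowest level was EV RV replicate 1, where *Cxcl10* was highest. The part of interferon signalling in the levels of *Cxcl10* and of the interferon-induced genes was not tested.

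**Figure D5:**
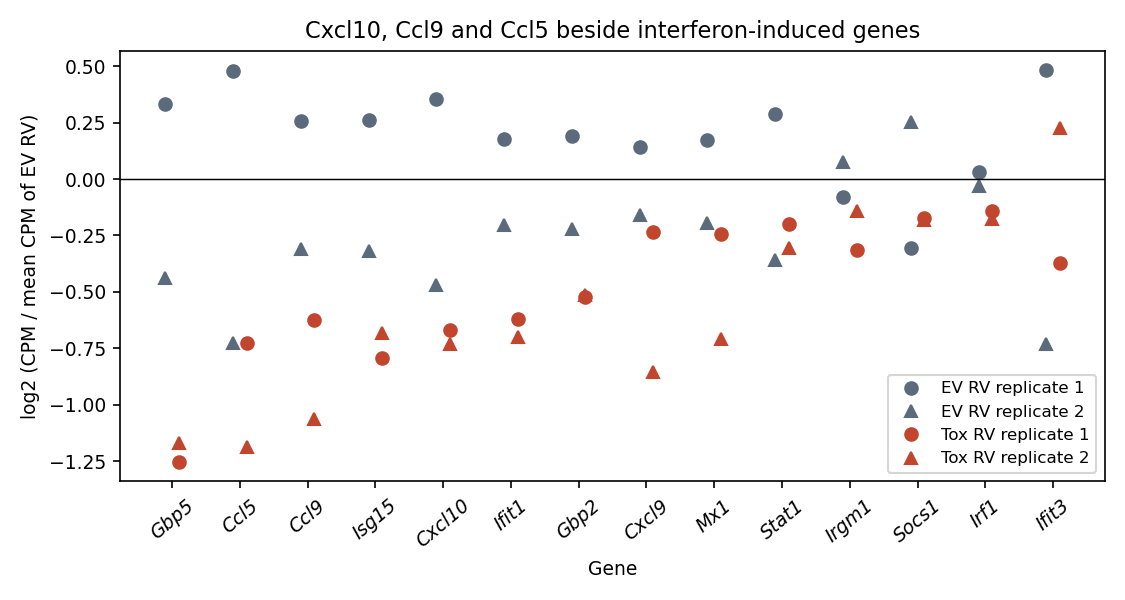
CPM of *Cxcl10*, *Ccl9*, *Ccl5* and the 11 interferon-induced genes tested, in each library, as log2 of the ratio to the mean of the EV RV libraries. Points below 0 are lower than that mean. EV RV replicate 1 lies above EV RV replicate 2 for 9 of the 11 interferon-induced genes, and both Tox RV libraries lie below both EV RV libraries for 8.

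*Cxcl16*, on chromosome 11 (70453983 to 70459984), measured 0.90 and 0.96 TPM in EV RV (replicates 1 and 2) and 1.32 and 1.23 TPM in Tox RV. The libraries of a group lay close together and the groups did not overlap, but the log2 fold change of 0.54 ± 0.31 did not pass the test (edgeR adjusted p = 0.897). It stayed between 0.45 and 0.64 when libraries were left out singly. *Zmynd15* overlaps *Cxcl16* on the other strand and had 5 to 18 counts. *Cx3cl1* was at 1.67 and 0.75 TPM in EV RV and 0.89 and 0.46 TPM in Tox RV, with overlap between the groups. The difference was -0.73 ± 0.52 and came to -0.10 without EV RV replicate 1. The sheddase genes *Adam17* and *Adam10*, at 67.7 to 86.5 CPM and 127 to 154 CPM, had log2 fold changes of 0.27 ± 0.16 and -0.21 ± 0.16 and did not pass the test.

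Of the 9 genes for receptors of these ligands, 8 were tested, with a log2 fold change above 0 in 3 and below 0 in 5 (median -0.08), and 0 passed the test. With library totals these counts were 5 and 3 (median 0.05), so the receptors as a group had no firm direction. *Ccr8*, whose product binds the abundant *Ccl1* ligand, was at 147 and 129 TPM with Tox RV and 156 and 152 TPM with EV RV. *Cxcr6*, the receptor gene for the *Cxcl16* product, was at 21.8 and 18.6 CPM in EV RV and 40.5 and 22.5 CPM in Tox RV, and both Tox RV libraries were higher (log2 fold change 0.64 ± 0.31). *Ccr1* was at 0.853 and 1.56 CPM with EV RV, against 2.64 and 1.02 CPM with Tox RV, and overlapped between the groups. Among 31 other chemokine ligand genes, 4 had enough counts to be tested, 0 passed the test, and 17 had at most 3 counts in every library. The highest level among the 31 was 2.64 TPM. *Ccl27a* had a log2 fold change of 0.41 ± 0.42, *Cxcl9*, a CXCR3 ligand gene like *Cxcl10*, one of -0.48 ± 0.57 and *Cxcl13* one of -0.45 ± 1.04.

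The 250 bases before the annotated start were taken from RefSeq (GRCm38.p6, the mm10 assembly) for the 7 members that had an entry, which leaves out *Ccl4*, *Ccl5* and *Cxcl16*. The flanks are shown for *Xcl1* and *Ccl3*, which had the higher levels with Tox RV, and for *Cxcl10*, which was lower in both Tox RV libraries. They lie at chr1:164935523-164935772, chr11:83649379-83649628 and chr5:92348890-92349139, all on the minus strand, and are written 5′ to 3′. Capitals mark matches, on either strand, to an AP-1 motif (TGANTCA), an NFAT core (GGAAA), an interferon response element (GAAANNGAAA) or the NF-κB consensus, and adjoining capitals may hold overlapping matches.
Xcl1: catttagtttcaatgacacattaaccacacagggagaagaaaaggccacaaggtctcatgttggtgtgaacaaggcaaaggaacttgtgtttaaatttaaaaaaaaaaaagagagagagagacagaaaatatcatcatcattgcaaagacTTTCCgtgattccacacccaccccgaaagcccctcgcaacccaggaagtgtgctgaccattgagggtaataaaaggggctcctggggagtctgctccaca
Ccl3: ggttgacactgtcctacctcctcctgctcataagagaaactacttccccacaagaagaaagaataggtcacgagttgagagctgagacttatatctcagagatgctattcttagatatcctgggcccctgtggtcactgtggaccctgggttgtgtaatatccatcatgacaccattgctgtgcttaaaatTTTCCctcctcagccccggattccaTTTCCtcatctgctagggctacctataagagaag
Cxcl10: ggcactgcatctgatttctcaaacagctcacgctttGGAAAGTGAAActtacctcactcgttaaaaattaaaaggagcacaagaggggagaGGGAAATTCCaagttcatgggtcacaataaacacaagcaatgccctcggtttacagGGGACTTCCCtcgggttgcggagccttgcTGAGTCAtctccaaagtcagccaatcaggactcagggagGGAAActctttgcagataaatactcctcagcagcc
In the *Xcl1* flank 1 NFAT core was found, from 100 to 96 bases before the start, and in the *Ccl3* flank 2 were found, from 59 to 55 and from 34 to 30 bases before the start. The NFAT core is short, and 55.57% of 32851 flanks of this length hold it. The AP-1 motif (6.75% of flanks), the interferon response element (2.98%) and the NF-κB consensus (3.90%) had no match in these letters in either window. A window of 250 bases cannot show sites elsewhere at these genes, and binding to any of the flanks was not tested. The *Cxcl10* flank held 1 AP-1 motif that reads as a match on both strands, 1 interferon response element, 2 NF-κB matches and 3 NFAT cores, of which 1 overlaps the interferon response element and 1 an NF-κB match. The flank of *Ccl9*, which was also lower in both Tox RV libraries, held 1 AP-1 motif, 1 NF-κB match and 2 NFAT cores. The *Ccl1* flank held 3 NFAT cores, and those of *Ccl22* and *Cx3cl1* had no match.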

How the data were processed

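RNA-seq was carried out on sorted GFP+ CD4 T cells, with 2 EV RV and 2 Tox RV libraries assigned to group and replicate by their titles. Per the study's methods the libraries of a group are biological replicates, so their spread includes that between mice. The authors used fastqc for read quality, bowtie for alignment to transcripts of mm10 and RSEM for quantification, and deposited 1 file per library. Tool versions and use of strand in counting are not given in the sources used here. The deposited expected counts are RSEM estimates and are not normalized. The deposited TPM and FPKM values were computed by RSEM per library. A further table of the whole series, named as TPM, was not used here because its columns do not have the sums that TPM have.

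Expected counts were rounded to whole numbers. Tests were run by quasi-likelihood with edgeR 4.0.16 under R 4.3.3 (filterByExpr with minimum count 10, TMM scaling, glmQLFit and glmQLFTest without a block, Benjamini-Hochberg adjustment). The common biological coefficient of variation was 0.232. The standard error came from the log2 fold change and the F statistic. CPM used TMM-scaled library sizes. A gene at or below 3 counts was taken as at the floor. Alternatives were DESeq2 1.42.0 with default parameters, median-of-ratios scaling, library totals, *Rn45s* left out, a block for replicate number, all genes with a count in place of the filter, limma 3.58.1 on log2(TPM + 1) and log2(TPM + 0.1), FPKM for levels, and each library left out. Directions of gene lists under other scalings and without each library were added after seeing the data. The tests were first tested on simulated counts of 14143 genes, at an adjusted p-value below 0.05. There edgeR called 26% of 2-fold changes, 94% of 4-fold changes and 13 unchanged genes. DESeq2 called 49% of 2-fold changes, 97% of 4-fold changes and 48 unchanged genes. The simulation gave each gene the same dispersion in both groups, whereas the real EV RV replicates lay further apart than those of Tox RV. These rates therefore need not hold for the real libraries. Positions are from GENCODE (mm10), except that of *Ccl1*, and flanks from RefSeq.

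The members and lists were chosen with earlier results of these data known. Named genes were the 10 members, *Tox*, the 3 genes of each other list with the smallest unadjusted p-value, genes within 200 kb of *Ccl3* and *Ccl4*, and the 5 genes nearest to *Xcl1*, *Ccl3* and *Ccl4*. Of the genes this rule names, 1 is not reported here. Overlapping genes and single cell type markers were also named, and further genes (*Klrd1*, *Cd8a*, *Ccr8*, *Ifit3* and *Ifng*) were named with their values in view. Of the marker lists, *Cd3g* (0.41), *Cd79b* (0.60), *Cd22* (-0.49), *Cd79a* (-0.57), *Fcer1g* (-1.08) and *Itgam* (1.01) had these log2 fold changes, and 0 of them passed the test.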

Additional observations from a re-analysis of the deposited data

How the results depend on the processing

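The chemokine genes called at an adjusted p-value of 0.05, 0 in the quasi-likelihood test, were 3 of 10 with DESeq2 and 3 without the filter on low counts, in both cases *Xcl1*, *Ccl3* and *Ccl4*. With the replicate number as a block there was 1, *Xcl1* (adjusted p = 5.97e-05). Over all genes the counts were 22, 22 and 16, against 0 in the quasi-likelihood test, where 152 genes were higher and 360 lower at an unadjusted p-value below 0.05. With libraries left out singly, 0 to 3 chemokine genes and 1 to 600 of all genes were called. The lone library of a group is then assumed to vary like the others, and these counts say little about stability. The 600 arose without EV RV replicate 2 and the 3 without Tox RV replicate 2. *Ccl22* changed sign without EV RV replicate 1 (log2 fold change 0.70) and without Tox RV replicate 2 (0.58), and *Ccl1* without Tox RV replicate 1 (-0.16). Left out singly, libraries gave -2.08 to 0.70 for *Ccl22* and -0.16 to 1.14 for *Ccl1*. All other alternatives kept the direction of each of the 10 genes. The cause of these differences was not tested.

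Deviations of same-numbered libraries from their group means had a correlation of 0.377 across genes, but there are 2 pairs only and the labels do not tie a number to a mouse, so the block is given as an alternative and not as a paired design. Scaling by library totals moved the median of all genes to 0.124 on the log2 scale. The order of mean levels was the same by FPKM as by TPM for all 10 genes in both groups. Within a library both scales give the same order by construction, so this says little about how firm the order is. Reads are not unique molecules, and for *Ccl22* counts of 2 to 16 limit what could be seen.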
